A study of Capra hircus with 20 samples.

Results

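The distal miRNA run of the DLK1-DIO3 domain, from miR-379 to miR-656, was followed in the hypothalamus of Jining grey goats from birth to day 180. Its members were chosen by name, with both arms of a hairpin kept, and by a level of at least 1 RPM (reads of a miRNA relative to all miRNA reads of the library, scaled to a common total) in at least 5 of the 20 libraries. The names matched 59 of the 683 miRNAs in the deposited table, and 51 passed the level filter, beside 414 miRNAs tested in all. The 51 members come from 37 hairpins: 16 carry a 5p name, 27 a 3p name and 8 no arm. The 8 that did not pass are miR-376d, miR-376b-3p, miR-377, miR-410-5p, miR-3958-5p, miR-154a-5p, miR-487b-5p and miR-496-5p, of which each reached 1 RPM in at most 3 libraries. A member that passed only through the age at which it is high was favoured by this filter.

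Small RNA was sequenced from hypothalamus of goats aged 1, 60, 120 and 180 days, with 5 biological replicates per age. All goats were of the same breed, and the design text says that they shared housing and management and fed freely. The labels name no treatment, genotype, sex or batch, and each library is whole tissue. In whole tissue, fewer cells of a type and less RNA per cell cannot be told apart.

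In placental mammals the DLK1-DIO3 domain is imprinted: the protein-coding genes are read from the paternal chromosome, and the long noncoding transcripts that hold the miRNA hairpins from the maternal one. The distal hairpins lie close together and are cut from shared precursor transcripts, and in rodent neurons their transcription is induced by activity. Each hairpin can release a miRNA from its 5p and from its 3p side, and the share of each is set after transcription. Several members act in neurons: miR-134 limits the size of dendritic spines, miR-485 acts on the presynaptic vesicle protein SV2A, and miR-369, miR-496 and miR-543 act on N-cadherin in the developing cortex.

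The goat RefSeq annotation (ARS1.2) was used for gene order only. All 39 hairpins behind the 59 matched miRNAs were found there, as 39 consecutive miRNA genes with no other miRNA gene between them. The order starts with miR-3955 and miR-379 and ends with miR-323b and miR-656. The miR-376 hairpins stand in the middle, and miR-382, miR-134 and miR-485 follow each other in the distal stretch. miR-3955, miR-3958 and miR-3959 are names known from sheep and goat, and they hold places 1, 14 and 25.

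The libraries held between 4017937 and 8324880 miRNA reads each, and 3 reads, taken as the floor, were worth 0.360 RPM in the deepest and 0.747 RPM in the shallowest. This floor covers counting error only. Replicate 2 of day 1 stood apart from the other libraries, with a median Spearman correlation of 0.873 against 0.918 for the next lowest, and had the lowest depth. The tissue label was checked on a list of hypothalamic and neuronal miRNAs, whose 11 rows, among them miR-9, miR-7 and miR-124, were all present in every library and summed to between 118996 and 478528 RPM.

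The run took 2.18% of all miRNA reads on average, with a range from 0.816% to 5.87% over the 20 libraries. On day 1 its share was 3.04%, 5.87%, 1.96%, 2.41% and 0.816% in replicates 1 to 5. On day 60 it was 3.20%, 2.68%, 1.77%, 2.70% and 2.56%. The newborn animals thus spanned both the highest and the lowest share of the whole series, while those of day 60 lay close together. On day 120 the share was 1.35%, 2.75%, 1.62%, 1.48% and 1.26%, and on day 180 it was 1.07%, 1.53%, 1.21%, 2.83% and 1.44%. At both later ages 4 of 5 libraries lay below every library of day 60, and 1 library (replicate 2 of day 120, replicate 4 of day 180) lay among them. The means were 2.82% ± 1.89 (SD, n = 5), 2.58% ± 0.515, 1.69% ± 0.609 and 1.62% ± 0.702 in order of age. Without replicate 2 the day 1 mean was 2.06% ± 0.936 (SD, n = 4), and without replicate 5 it was 3.32% ± 1.76. These sums over members are given as a description, with no test.

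**Figure D1:**
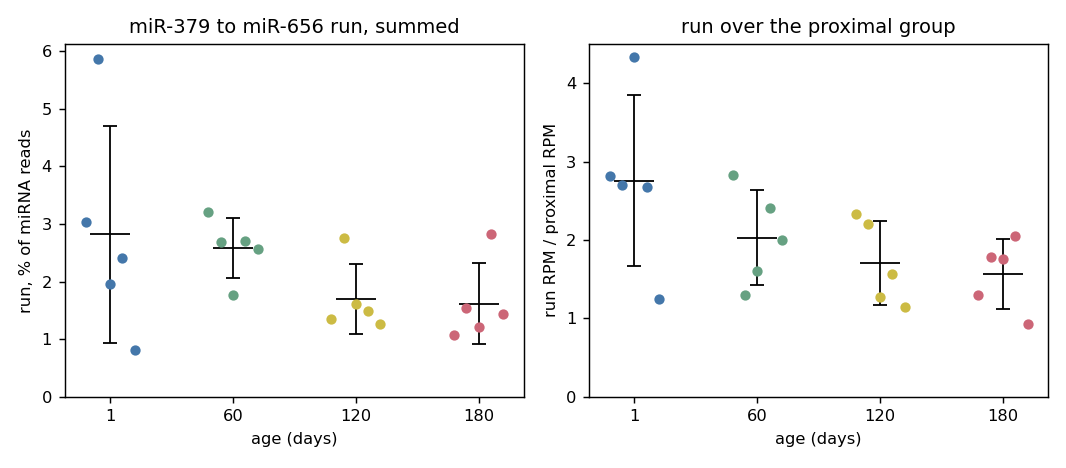
Left, summed level of the 51 members as a percentage of all miRNA reads in each library (points), by age in days. Right, the same sum divided by the sum of the proximal miRNAs of the domain; horizontal bars are means and whiskers SD over 5 libraries. The day 1 points reach from 0.816% to 5.87%, and at days 120 and 180 all but 1 library each lie below the day 60 points.

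The neighbouring proximal group of the domain (miR-127, miR-136, miR-432, miR-433, miR-493 and miR-665, 10 miRNAs tested) gave a comparison within the same imprinted unit. In order of age its summed level was 10499.6 ± 6675, 13375 ± 4077, 10256 ± 2828 and 10588 ± 3762 RPM (SD, n = 5). The distal run was 2.71 times as high in the median newborn library, and 2.01, 1.57 and 1.75 times as high in the median libraries of the later ages. The ranges of this ratio overlapped at all ages, from 1.25 to 4.33 on day 1 and from 0.934 to 2.06 on day 180.

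The summed levels of marker miRNAs varied with the run across the 20 libraries, which share depth and scaling within each library. Spearman's rho with the run's sum was 0.564 for the neuronal list and 0.562 for the multiciliated list. It was -0.717 for the 5 muscle miRNAs (miR-1, miR-133 and miR-206) and -0.322 for the 3 oligodendrocyte miRNAs. The other lists gave 0.466 for microglia and immune cells, 0.432 for pituitary and epithelium, 0.214 for choroid plexus, -0.251 for erythroid cells and -0.334 for liver. The muscle list summed to between 263 and 2647 RPM on day 1, 536 and 2284 on day 60, 1221 and 2314 on day 120, and 336 and 3640 on day 180. The neuronal list ranged from 198217 to 405211 RPM on day 1 and from 118996 to 478528 on day 180. The multiciliated list ranged from 145 to 5128 RPM on day 1 from 72.1 to 395 on day 60, from 114 to 2547 on day 120 and from 55.4 to 2022 on day 180. Its miR-449b rows and miR-449c were at 0 in 15 to 17 of 20 libraries, while miR-34c was present in all. The part of cell makeup in the level of the run was not tested.

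The levels of the members spanned more than 3 orders of magnitude, although their hairpins lie side by side. The levels are shares of reads and not numbers of molecules. The 6 members at 1000 RPM or more made up 61.4% of the run's reads, 20 members between 100 and 1000 RPM made up 35.7%, 13 between 10 and 100 RPM made up 2.67%, and the remaining 12 made up 0.168%. The most abundant was miR-323a-3p at a mean of 3498 RPM, or 16.1% of the run and rank 35 in the table. It was followed by miR-409-3p, a miRNA described in developing corticospinal neurons, at 2735 RPM, by miR-379-5p at 2397, by miR-3958-3p at 2037, by miR-382-5p at 1562 and by miR-543-3p at 1152 RPM. Thus a miRNA named so far only from ruminants, miR-3958-3p, was among the 4 leading members.

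The middle of the run held the smallest share of its reads. The 19 members at places 1 to 13 held 50.4% of the run's reads, the 14 members at places 14 to 26 held 12.2%, and the 18 members at places 27 to 39 held 37.4%. The 4 tested members of the miR-376 family, known for adenosine-to-inosine editing in other mammals, stand there and averaged 2.63 RPM (miR-376c-3p), 2.14 (miR-376a), 2.04 (miR-376e-3p) and 1.55 RPM (miR-376b-5p). Beside them stood miR-1185, at 2.80 RPM for the 3p and 1.58 RPM for the 5p arm, and miR-381 at 15.5 RPM. Of the 12 members under 10 RPM, 7 lie at places 14 to 26 and 5 elsewhere, among them the lowest, miR-543-5p at 0.759 RPM and place 12. The abundant miR-3958-3p is also in the middle. Level and place in the run were otherwise only weakly related (Spearman's rho -0.113 over the 51 members, as a description). Members of near-identical sequence (miR-376, miR-329a and miR-329b, miR-411a and miR-411b) may take each other's reads, and their separate levels are uncertain.

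**Figure D2:**
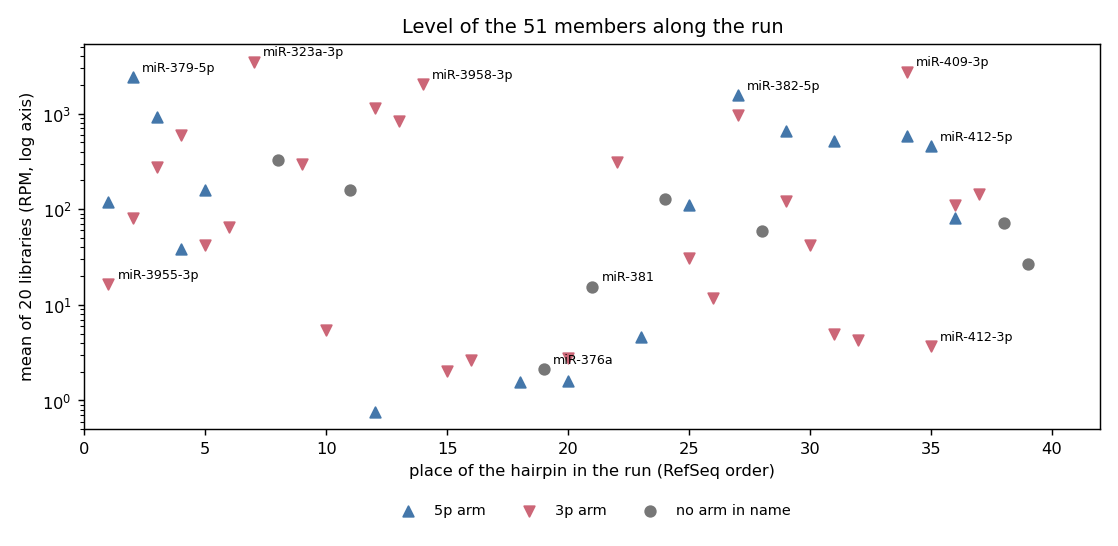
Mean level of each of the 51 members over 20 libraries (RPM, log axis) against the place of its hairpin among the 39 consecutive miRNA genes, with 5p, 3p and unnamed arms marked. High and low members alternate along the run, and the miR-376 and miR-1185 miRNAs at places 15 to 20 lie near 1 to 3 RPM.

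The first question was which members differed over the 4 ages. The limma F test on log2(RPM + 1) called 1 of the 51 members, miR-3955-3p, at a Benjamini-Hochberg adjusted p under 0.05 over all 414 miRNAs, of which 1.93% were called. At an unadjusted p under 0.05 there were 7 of 51 members, beside 70 of all 414 miRNAs. On the recovered reads, edgeR called 3 members with TMM scaling and 5 with library sizes alone, beside 9.42% and 12.8% of all miRNAs, and DESeq2 called 11, beside 21.7% of all. Without replicate 1, 2 or 3 of day 1, replicate 1, 2, 3 or 5 of day 120 or replicate 4 of day 180 no member was called, and 2 or 3 were called without replicate 4 or 5 of day 1 or replicate 5 of day 60. In these last fits 3.86%, 3.62% and 2.90% of all miRNAs were called, in the same order.

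By the order of their stage means, 16 of 51 members (31.4%) had a lower mean at each later age, beside 52 of all 414 miRNAs (12.6%), and 0 had a higher mean at each later age, beside 18 of all. The highest mean was that of day 1 for 26 members, of day 60 for 22, of day 120 for 2 and of day 180 for 1, beside 212, 93, 72 and 37 of all 414 miRNAs. Day 1 thus held the highest mean for about the same share of members (51%) as of all miRNAs (51.2%), and day 60 for 43.1% of members beside 22.5% of all. These counts describe means only, and members that vary together are not independent observations. The means are of RPM, and those of day 1 include the outlying replicate 2. Without that library the run's share averaged 2.06% on day 1, beside 2.58% on day 60. The orders were not counted without it.

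From day 1 to day 180 limma called 4 members, 1 higher and 3 lower. Over all 414 miRNAs 0.725% were called higher and 2.66% lower. miR-3955-3p rose, and both arms of miR-412 and miR-496-3p fell. The median change over the 51 members was -0.52 on the log2 scale, with 37 below 0, beside -0.25 over all 414, with 259 below 0. Median-of-ratios scaling moved the median of all miRNAs from -0.25 to -0.03 and that of the members from -0.52 to -0.29, a like amount. With quantile scaling the members' median was -0.26, beside -0.0028 over all miRNAs. The 2 medians lay closer in edgeR, at -0.32 beside -0.16 with TMM and -0.57 beside -0.46 with library sizes. In DESeq2 they were -0.37 and -0.18. Without replicate 2 of day 1 the members' median was -0.25, beside -0.05 over all miRNAs. It was -0.34 beside -0.15 without replicate 1 of day 180, and -0.81 beside -0.38 without replicate 5 of day 1. On the recovered reads edgeR called 3 members with TMM scaling and 6 with library sizes alone, beside 5.31% and 11.6% of all miRNAs, and DESeq2 called 5, beside 14.7%. The ranges of the 2 ages did not overlap for 1 member that was higher (miR-3955-3p) and 2 that were lower (miR-412-3p and miR-381). Over all miRNAs 0.725% were higher without overlap and 2.90% lower.

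miR-3955-3p, from the first hairpin of the run, measured 5.94, 1.74, 5.05, 5.97 and 4.71 RPM on day 1 and 22.9, 15.0, 5.74, 9.92 and 32.1 RPM on day 60. On day 120 it measured 24.0, 35.9, 25.3, 14.2 and 22.2 RPM, and on day 180 12.5, 15.0, 11.5, 26.2 and 33.7 RPM. Every library of days 120 and 180 lay above every library of day 1, and only 1 library of day 60 (replicate 3) fell within the day 1 range. The log2 change from day 1 to day 180 was 1.82 (SE 0.47, limma adjusted p = 0.0395), higher in 5 of 5 libraries, and the F test gave an adjusted p of 0.0338. The day 60 step alone was 1.53 (SE 0.47, limma adjusted p = 0.067). This step was called with median-of-ratios and quantile scaling, without a trend, in edgeR under both scalings and in DESeq2. In these settings 4.35% to 20.8% of all miRNAs were called. It was not called with other pseudocounts or filters, with the 2 ages alone or with the replicate block. The day 180 call ended without replicate 1, 2 or 3 of day 1 (adjusted p = 0.0534, 0.108 and 0.0557), replicate 5 of day 120 (0.0505) or replicate 4 or 5 of day 180 (0.0878 and 0.0893), and over the 20 fits with a library left out it spanned 0.022 to 0.108.

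The other arm of that hairpin, miR-3955-5p, had nearly level means. In order of age it measured 136 ± 101, 122 ± 61.9, 105 ± 39.4 and 108 ± 41.5 RPM (SD, n = 5). The log2 change to day 180 was -0.14 (SE 0.49, limma adjusted p = 0.897), and the sign turned under median-of-ratios scaling (0.11), quantile scaling (0.30), edgeR with TMM (0.15) and DESeq2 (0.14).

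miR-412-5p was the most abundant of the members that fell. It measured 905, 1693, 573, 795 and 211 RPM on day 1, 610.0, 521, 348, 431 and 635 on day 60, 329.8, 390.0, 203, 173 and 203 on day 120, and 131, 215, 100, 402 and 273 RPM on day 180. In 4 of 5 newborn libraries the level lay above every library of days 120 and 180, and replicate 5 of day 1 lay within their range. The log2 change to day 180 was -1.77 (SE 0.48, limma adjusted p = 0.0395). The call ended without any 1 of 10 libraries: replicates 1 to 4 of day 1, replicate 2 of day 60, replicate 5 of day 120, and replicates 1, 2, 3 and 5 of day 180 (adjusted p up to 0.131, from 0.00376).

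miR-412-3p, the rare arm of the same hairpin, measured 6.33, 31.9, 4.49, 4.14 and 2.66 RPM on day 1 and 1.72, 3.20, 3.90, 2.24 and 1.40 on day 60. On day 120 it measured 1.10, 1.68, 0.598, 1.44 and 1.87 RPM, and on day 180 1.00, 0.716, 2.12, 1.09 and 0.746 RPM. All newborn libraries lay above all of days 120 and 180, where several lay near the floor of 3 reads. The log2 change was -1.86 (SE 0.45, limma adjusted p = 0.0223), and among left-out libraries only the removal of replicate 5 of day 180 ended the call (adjusted p = 0.0637, in a range from 0.00561).

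miR-496-3p was also rare. It measured 5.81, 13.2, 14.6, 4.63 and 1.93 RPM on day 1, 9.20, 3.04, 1.38, 1.28 and 5.60 on day 60, 1.83, 8.29, 4.79, 1.44 and 2.74 on day 120, and 0.143, 2.15, 1.06, 1.21 and 1.24 RPM on day 180. The low newborn library, replicate 5, overlapped the oldest group. The log2 change was -1.88 (SE 0.51, limma adjusted p = 0.0395). The call ended without any 1 of 9 libraries: replicates 1 to 3 of day 1, replicate 2 of day 60, replicate 5 of day 120, and replicates 1, 3, 4 and 5 of day 180 (adjusted p up to 0.122, from 0.00893). The count of 4 called members became 1 without replicate 1, 2 or 3 of day 1 or replicate 5 of day 120, 2 without replicate 2 of day 60 or replicates 1, 3 or 4 of day 180, and 0 without replicate 5 of day 180. In a limma fit of the 2 ages alone none of the 4 was called (adjusted p from 0.106 to 0.175), beside 1.21% of all miRNAs.

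**Figure D3:**
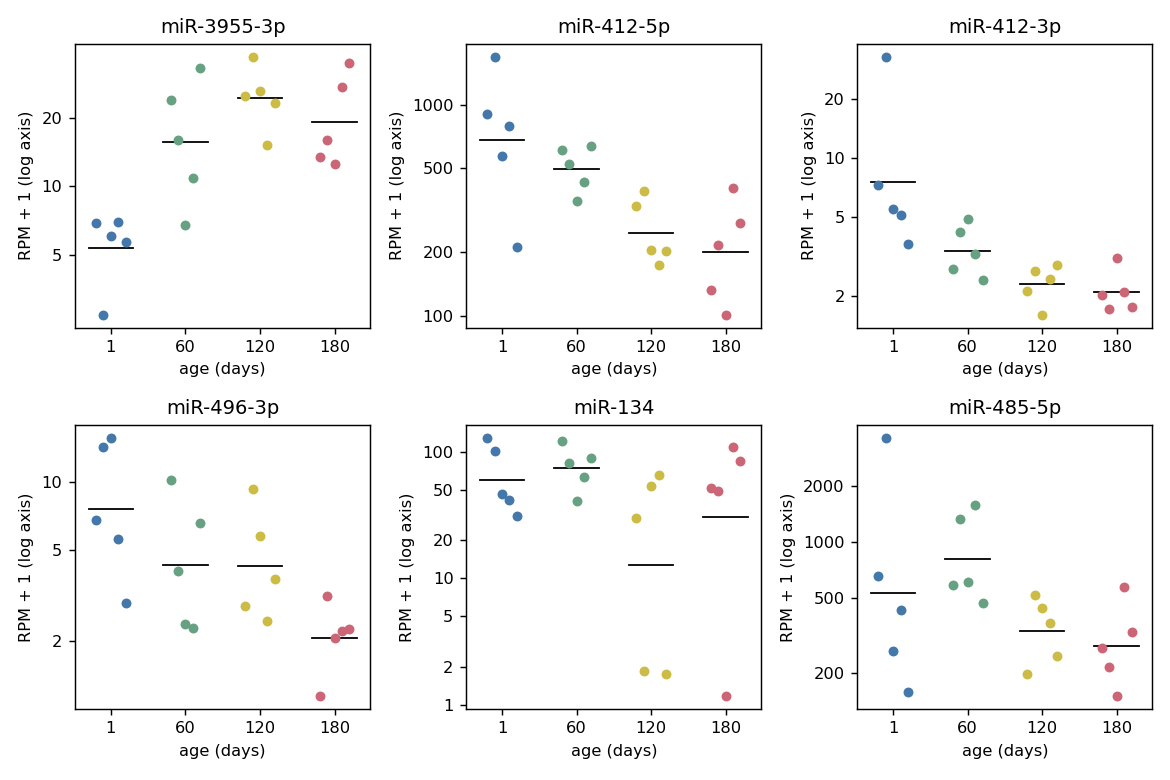
Level (RPM + 1, log axis) of 6 members in each of the 20 libraries, by age in days; points are libraries and bars the mean of the log values over 5 libraries. miR-3955-3p is lowest on day 1, both arms of miR-412 and miR-496-3p are lowest on day 180, and miR-134 lies under 1 RPM in 3 libraries of the later ages.

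From day 1 to day 60 limma called 0 of 51 members. The adjusted p of the members was 0.067 or more, and 8 passed 0.05 before adjustment, beside 87 of all 414 miRNAs. Over all miRNAs 0.725% were called higher and 3.14% lower. The median change over the members was 0.18, with 27 above 0 and 24 below, beside -0.04 over all miRNAs. edgeR called 4 members with TMM scaling, all higher, and 4 with library sizes alone, beside 13.8% and 15.0% of all miRNAs in either direction. DESeq2 called 8, of which 7 were higher, beside 20.8% of all. The median change was below 0 without replicate 5 of day 1 (-0.22), without replicate 1 (-0.20) or 5 (-0.07) of day 60 and in edgeR with library sizes (-0.02). It lay at 0.06 without replicate 3 of day 1, 0.09 without replicate 4 of day 1, 0.08 without replicate 2 of day 60, 0.33 without replicate 2 of day 1 and 0.32 without replicate 3 of day 60. With a pseudocount of 0.1, edgeR with TMM and DESeq2 it was 0.12, 0.08 and 0.11. Without replicate 4 of day 1 or replicate 3 of day 60 limma called 1 member, miR-3955-3p, beside 10.4% and 2.17% of all miRNAs.

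From day 60 to day 120 limma called 0 members, and from day 120 to day 180 it also called 0. The shares over all miRNAs were 0% in each direction for both steps. At an unadjusted p under 0.05 there were 6 members in the first step and 2 in the second, beside 13 and 3 of all 414 miRNAs. edgeR under both scalings and DESeq2 called 0 in both. The median change over the members was -0.12 from day 60 to day 120, with 35 of 51 below 0, beside 0.03 over all miRNAs with 197 of 414 below 0. Its sign rested on single libraries: leaving out replicate 1 or 5 of day 60 gave 0.22 or 0.02. Leaving out replicate 3 or 4 of day 60 gave -0.41 or -0.33, and leaving out replicate 2, 4 or 5 of day 120 gave -0.35, -0.08 or -0.01. In edgeR (TMM, library sizes) and DESeq2 it was -0.31, -0.35 and -0.34. From day 120 to day 180 it was -0.24, with 41 of 51 below 0, beside -0.15 with 274 of 414 below 0. This median too was set by single libraries and by the scaling: it was 0.0038 without replicate 1 of day 180, -0.48 without replicate 4 of day 180 and -0.04 without replicate 2 of day 120. It was -0.07 with median-of-ratios scaling, -0.06 with quantile scaling, -0.01 in edgeR with TMM and -0.02 in DESeq2. These steps share the libraries of the age between them.

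The most abundant members did not pass the test in any step. miR-323a-3p measured 6275, 8732, 1159.9, 6328 and 1474 RPM on day 1 and 3245, 4689, 3677, 5768 and 3630.0 on day 60. On day 120 it measured 1586, 3939.9, 2359, 2375 and 1953 RPM, and on day 180 1499, 2725, 2304, 4383 and 1849 RPM. The newborn libraries fell at the high and the low end of the whole range, with replicates 3 and 5 below all of the others. The log2 change to day 180 was -0.59 (SE 0.48, limma adjusted p = 0.495).

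miR-409-3p spread even more widely in newborns, at 4096, 12142, 940.2, 2567 and 768 RPM, and measured 2639, 4243, 2675, 6210.2 and 1791 RPM on day 60. On day 120 it measured 832, 2314, 1449.8, 1553 and 1064 RPM, and on day 180 1516, 1295, 1325, 3933 and 1342 RPM. Its log2 change to day 180 was -0.55 (SE 0.57, limma adjusted p = 0.617). miR-485-5p, of the miRNA that acts on SV2A, had the same shape: 658, 3607, 260.0, 432 and 156 RPM on day 1, 585, 1325, 612, 1571 and 474 on day 60, 195, 519.9, 445, 367 and 246 on day 120, and 270.3, 215, 149, 571 and 328 RPM on day 180. In both, replicate 2 was the highest and replicate 5 the lowest newborn library, and the ages overlapped. The log2 change of miR-485-5p was -0.94 (SE 0.61, limma adjusted p = 0.378). Its 3p arm went from 290.1 ± 511 to 46.6 ± 35.9 RPM (SD, n = 5), with the day 1 mean set by replicate 2 at 1202 RPM, and the other 4 newborn libraries lay between 11.8 and 124 RPM. edgeR with library sizes called this 3p arm lower on day 180 and also over the 4 ages, where DESeq2 called it too.

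miR-379-5p, which opens the classical run, was the steadiest of the abundant members in newborns apart from 1 library: 2728, 3167, 3383, 3299 and 1364 RPM. It averaged 2516 ± 569 RPM on day 60, 1895 ± 439 on day 120 and 2388 ± 1346 on day 180 (SD, n = 5), and its change to day 180 was -0.44 (SE 0.44, limma adjusted p = 0.602), with the sign turned under edgeR with TMM (0.14) and DESeq2 (0.10). Its 3p arm, miR-379-3p, lay the other way, with means of 46.6 ± 26.2, 104 ± 64.1, 91.9 ± 41.5 and 83.2 ± 38.3 RPM in order of age (log2 change to day 180 0.87, SE 0.51, limma adjusted p = 0.335). This arm was called higher on day 180 with quantile scaling, and DESeq2 called it on day 60. miR-382-5p averaged 2302 ± 466 RPM on day 60 and 1072 ± 280.3 on day 180, and day 180 differed from day 1 by -0.49 (SE 0.43, limma adjusted p = 0.53). The ruminant miR-3958-3p averaged 2797 ± 1987, 2143 ± 968, 1925 ± 1035 and 1282 ± 608 RPM in order of age, a change of -0.93 (SE 0.51, limma adjusted p = 0.31). In the same order miR-543-3p averaged 1294 ± 1441, 1563 ± 421, 832 ± 340 and 920 ± 499 RPM. For miR-382-3p the means were 1105 ± 866, 1132 ± 539, 918 ± 268 and 747 ± 299 RPM. Those of miR-411a-5p were 1429 ± 1322, 770 ± 433, 850 ± 332 and 642 ± 286 RPM. Those of miR-495-3p were 658 ± 486, 1062 ± 427, 842 ± 321 and 776 ± 400 RPM.

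Of the members not called on day 180, miR-381 came closest to the threshold. It measured 18.6, 38.3, 49.9, 17.2 and 25.5 RPM on day 1 and 10.3, 9.02, 3.01, 16.8 and 12.2 RPM on day 180, without overlap, and the change was -1.49 (SE 0.49, limma adjusted p = 0.0891). On days 60 and 120 it averaged 11.2 ± 5.50 and 10.6 ± 7.11 RPM, near its day 180 mean of 10.3 ± 5.00. miR-323b went from 168 ± 215 to 36.9 ± 36.8 RPM (SD, n = 5; change -1.60, SE 0.66, limma adjusted p = 0.175), and its newborn values were 179, 535, 27.8, 70.9 and 25.7 RPM. edgeR with library sizes called miR-323b lower on day 180. miR-656, at the far end of the run, had its lowest mean on day 1 at 11.0 ± 6.26 RPM and measured 34.1 ± 22.9, 37.7 ± 23.8 and 25.1 ± 13.1 RPM at the later ages (change to day 180 1.08, SE 0.60, limma adjusted p = 0.31). DESeq2 called miR-656 higher on day 180. For day 60 it was called with quantile scaling, edgeR with TMM and DESeq2, beside 8.21%, 13.8% and 20.8% of all miRNAs. Over the 4 ages quantile scaling and DESeq2 called it, beside 6.76% and 21.7%.

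miR-134, the regulator of dendritic spines, was set apart by 3 libraries. It measured 127, 100, 45.2, 40.7 and 29.8 RPM on day 1 and 119, 80.1, 39.5, 62.2 and 87.8 RPM on day 60. On day 120 it measured 29.1, 0.841, 52.8, 64.3 and 0.748 RPM, and on day 180 50.2, 47.5, 0.177, 109 and 83.4 RPM. The 3 low values rest on 7, 6 and 1 reads, while the other 17 libraries lay between 29.1 and 127 RPM. Its neighbour in the run, miR-382-5p, measured 1915, 699.6 and 1222 RPM in the same 3 libraries. There were 271 tested miRNAs with a median of at least 20 RPM at 1 age or more. Of these, 2 fell under 1 RPM in a library while the other libraries of its age had a median of at least 20 RPM. They were miR-134 and 1 numbered prediction. The cause was not tested, and the change of miR-134 to day 180 (-0.96, SE 1.03, limma adjusted p = 0.63) turned its sign in edgeR with TMM (0.22) and in DESeq2 (0.20).

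The remaining neuronal and ruminant members did not pass the test in any step. miR-329b-3p averaged 232 ± 157, 439 ± 159, 275 ± 201 and 251 ± 181 RPM in order of age, and miR-410-3p 208 ± 205, 147 ± 124, 125 ± 69.0 and 96.7 ± 42.9 RPM (SD, n = 5). miR-3959-5p averaged 127 ± 59.1, 130.2 ± 73.9, 93.8 ± 34.1 and 86.4 ± 49.4 RPM, and its 3p arm 17.0 ± 7.73, 44.0 ± 45.5, 30.3 ± 13.2 and 33.6 ± 28.4 RPM. miR-369-3p averaged 113 ± 56.3, 136 ± 139, 111 ± 61.4 and 86.7 ± 44.7 RPM, and miR-369-5p 117 ± 136, 89.9 ± 20.9, 63.3 ± 20.3 and 52.2 ± 23.1 RPM. In all 6 of these the ages overlapped. The rarer miR-329a-3p averaged 4.85 ± 3.24, 7.17 ± 6.14, 5.93 ± 4.60 and 3.85 ± 2.34 RPM. The tested miR-376 miRNAs stayed under 5 RPM in every stage mean.

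Within the proximal group 1 of the 10 tested miRNAs was called in the F test, 1 was called lower on day 60 and 2 lower on day 180 than on day 1 (miR-493-3p and miR-665), with 0 higher. Their median change to day 180 was -0.81, with 8 of 10 below 0, beside -0.52 in the distal run. Both comparisons use the same newborn libraries.

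The balance of the 2 arms was tested in the hairpins for which both arms passed the filter, 14 of them in the run and 120 in all. The measure is the log2 ratio of (5p + 1) to (3p + 1) RPM within a library. Where an arm lies near 1 RPM, the added 1 makes the ratio depend on the level of the hairpin too. The limma F test over the 4 ages called 1 of the 14 hairpins, miR-3955 (adjusted p = 0.0183), beside 7.50% of all 120. Its 5p arm took 95.7%, 99.4%, 94.0%, 95.1% and 90.9% of the hairpin's reads on day 1, and 88.4%, 85.9%, 93.8%, 85.1% and 86.2% on day 60. On day 120 it took 70.9%, 78.9%, 86.1%, 86.5% and 79.4%, and on day 180 86.0%, 88.1%, 84.4%, 86.4% and 78.8%. The rarer 3p arm thus held a larger share in every library of days 120 and 180 than in any newborn library, and replicate 3 of day 60 overlapped the newborns. The change in log2 ratio from day 1 to day 180 was -1.96 (SE 0.50). The call held in all 20 fits with 1 library left out, and ended with a pseudocount of 5 (adjusted p = 0.0579, in a range from 0.00688 over all alternatives).

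In the day 60 against day 1 contrast of the same fit, added after the data were seen, limma called 3 of the 14 hairpins, 1 toward 5p and 2 toward 3p. Over all 120 hairpins 11.7% were called toward 5p and 12.5% toward 3p. miR-1185 shifted toward 5p, with a 5p share of 30.0%, 3.39%, 10.9%, 29.4% and 44.4% on day 1 and 58.0%, 64.3%, 72.7%, 33.3% and 52.6% on day 60 (change 1.59, SE 0.49, limma adjusted p = 0.0317). Replicate 4 of day 60 fell within the newborn range, and both arms of this hairpin average under 3 RPM. miR-411a shifted toward 3p, with a 5p share of 66.8%, 86.4%, 96.1%, 79.8% and 83.4% on day 1 and 72.0%, 56.8%, 64.9%, 55.2% and 80.4% on day 60 (change -1.52, SE 0.52, limma adjusted p = 0.0363), and the 2 ages overlapped. miR-3955 was the third (change -1.57, SE 0.50, limma adjusted p = 0.0352). The count became 0 without replicate 2 of day 1 or replicate 2 of day 60, 1 without replicate 3 of day 1 or replicate 3 or 4 of day 60, and 2 without replicate 5 of day 1. In these fits 10.8%, 2.5%, 7.5%, 5%, 9.17% and 16.7% of all hairpins were called, in the same order. With a pseudocount of 5 only miR-411a was called, beside 16.7% of all hairpins. Over all alternatives the adjusted p reached 0.089 for miR-1185, 0.0726 for miR-3955 and 0.128 for miR-411a.

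No other member hairpin was called in the F test. From day 1 to day 180 the balance lay further toward 3p in 9 of 14 member hairpins, beside 61 of 120 in all. The largest of these after miR-3955 were miR-154b (-1.61, SE 0.76), miR-379 (-1.31, SE 0.54), miR-411b (-1.21, SE 0.62), miR-3959 (-1.20, SE 0.45) and miR-411a (-1.10, SE 0.52), with F test adjusted p from 0.185 to 0.31 in limma. miR-379 was 98.3% 5p in newborns (96.8% to 99.1%) and 94.7% on day 180. That day 180 mean was set by replicate 3 at 84.8%, while the other libraries lay between 96.0% and 98.3%. miR-3959 was 87.9% 5p in newborns (85.3% to 93.0%) and 75.4% on day 180 (62.7% to 86.4%). The strand that dominates differed between hairpins of the run: miR-412 was 99.3% 5p, miR-485 87.7%, miR-382 60.7% and miR-369 43.5%, while miR-409 was 21.1%, miR-380 7.28% and miR-543 0.0747% 5p, as means over 20 libraries. In miR-382 and miR-369 the dominant strand changed between libraries. Their 5p share ranged from 39.2% to 91.25% and from 23.5% to 81.9%.

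**Figure D4:**
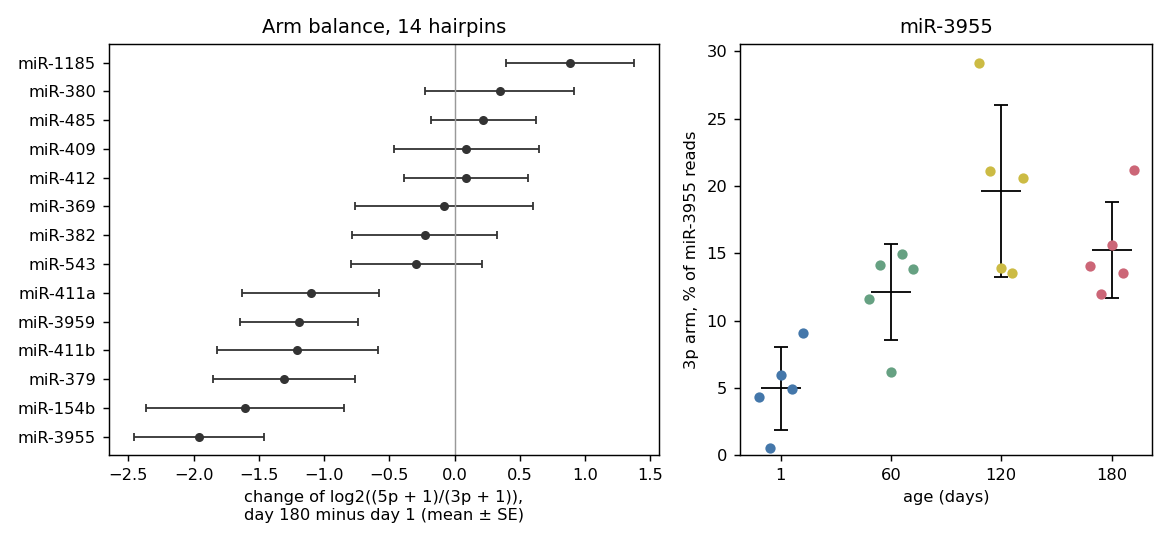
Left, change of the log2 ratio of the 5p to the 3p arm from day 1 to day 180 for the 14 hairpins with both arms (points, limma estimate; whiskers, SE), where negative values are toward 3p. Right, the 3p percentage of miR-3955 reads in each library by age in days, with mean and SD over 5 libraries; all points of days 120 and 180 lie above all points of day 1.

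Members varied together from animal to animal. After the mean of each age was taken off, the median Spearman rho between 2 members at 10 RPM or more was 0.564 over 741 pairs and 20 libraries, beside 0.123 over 31878 pairs of other tested miRNAs. Without replicate 2 of day 1 these were 0.623 and 0.102. Members and proximal miRNAs of the domain gave 0.374 over 273 pairs. These values are descriptions over libraries that share depth and scaling. The counts that follow were taken without removing the age means. Over the 39 members at this level, 38 lay above their mean over all 20 libraries in replicate 4 of day 180, 37 in replicate 1 of day 60 and 36 in replicate 2 of day 120. Only 2 did so in replicate 5 of day 1 and in replicate 1 of day 180. The median deviation from this 20-library mean ran from -1.15 to 1.17 on the log2 scale over the libraries. It holds differences between ages as well as between animals. In replicate 4 of day 180 it was 0.73 for the members and -0.30 for the other tested miRNAs, and in replicate 1 of day 60 it was 1.10 and 0.16.

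The covariation was not the same for all members. miR-154a-3p, miR-487a-3p, miR-655 and miR-758 had the highest median rho with the other members, from 0.720 to 0.748. miR-381 had the lowest, at -0.068, and reached -0.499 with miR-379-3p. miR-134 had 0.256 and miR-409-3p 0.277. miR-409-3p was nonetheless close to a few members: its rho was 0.943 with miR-543-3p, 0.929 with miR-485-5p and 0.929 with miR-485-3p. Pairs from a shared hairpin did not have the higher rho: the 10 pairs of arms from 1 hairpin had a median of 0.451, beside 0.570 over the other 731 member pairs. Without replicate 2 of day 1 the medians were 0.627 and 0.623. The pairs of arms differed widely: rho was 0.081 for miR-379 and 0.280 for miR-382, but 0.832 for miR-485 and 0.872 for miR-3959. Across hairpins, miR-379-3p had 0.845 with miR-411a-3p from the next hairpin.

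**Figure D5:**
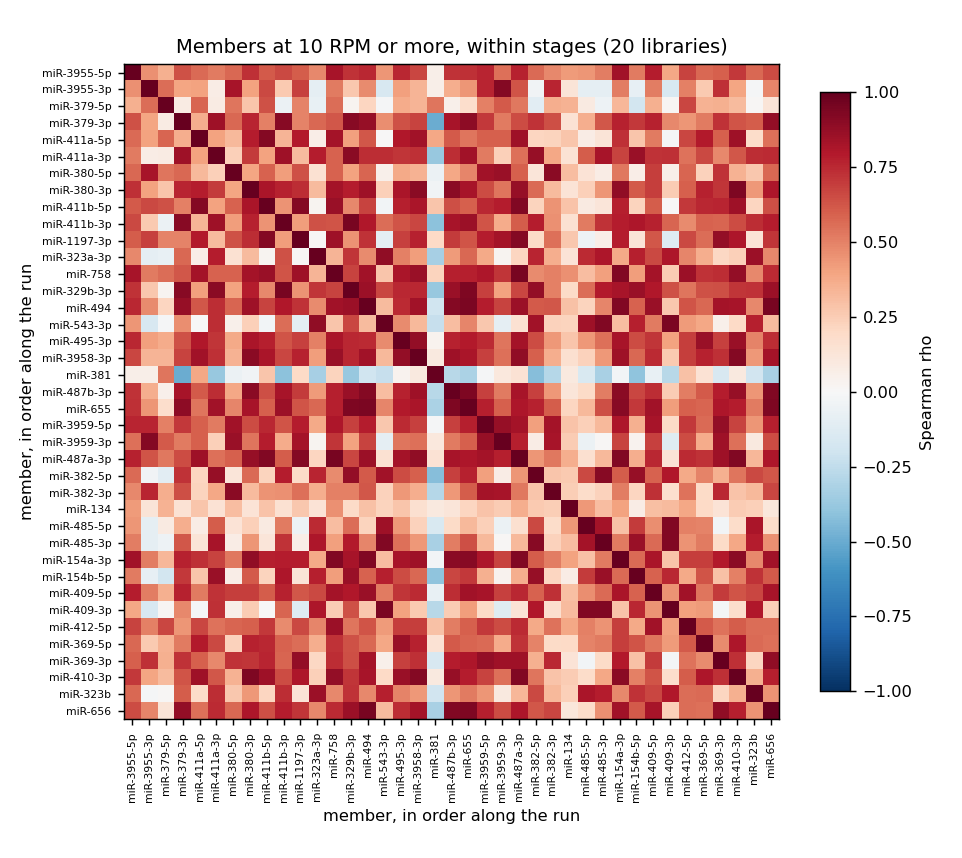
Spearman rho between each pair of the 39 members at 10 RPM or more over 20 libraries, after the mean of each age was taken off; rows and columns follow the order along the run, and colour runs from -1 (blue) to 1 (red). Most pairs are positive, with a median of 0.564, and miR-381 stands out with a median of -0.068.

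By SD, the spread between animals of 1 age was slightly wider for the members than for all tested miRNAs at 10 RPM or more, members included. The median SD on the log2 scale was 1.06 beside 0.95 on day 1, 0.81 beside 0.74 on day 60, 0.60 beside 0.57 on day 120 and 0.80 beside 0.73 on day 180. The median fold of RPM + 1 from the lowest to the highest library was nearly equal on day 1, at 5.42 beside 5.41. At the later ages it was 3.93 beside 3.45, 2.87 beside 2.66 and 4.02 beside 3.6. Newborns were thus the most variable group for the members and for all miRNAs.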

How the data were processed

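Small RNA from 20 goat hypothalamus libraries (4 ages, 5 replicates each) was analysed from 1 table that the authors deposited. Its columns are headed TPM, but the values are RPM as deposited by the authors: read counts relative to the sum over all miRNAs, without division by length. The sum of a column missed the full RPM total by at most 16.2, and 100% of values below 1000 reads came out as whole reads within a tolerance of 0.1 read. Per the labels' protocols, RNA came from Trizol extraction and libraries from a NEBNext kit. Bowtie is named in the submitters' processing notes. Genome build, catalogue and counter were not given in the sources used here, so no coordinates or sequences are printed.

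miRNAs at 1 RPM or more in at least 5 libraries were tested with limma 3.58.1 (R 4.3.3; eBayes with trend, two-sided) on log2(RPM + 1), which understates changes of rare miRNAs. One fit held all 20 libraries and 4 age means, with Benjamini-Hochberg adjustment at 0.05 over 414 miRNAs. Arm balance used the same model over 120 hairpins. Scripts were tested on simulated data. Alternatives were edgeR 4.0.16 and DESeq2 1.42.0 on the recovered counts, other pseudocounts, filters and scalings, no trend, 2 ages only, a replicate block and leaving out each library. Replicate numbers did not pair the libraries.

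Named with values are called members, the 10 most abundant, the 3 with the largest rise and fall to day 180 at 10 RPM or more, both arms of hairpins called for arm balance, the ruminant names, and miR-134, miR-329, miR-376, miR-379, miR-381, miR-382, miR-410 and miR-485 for their neuronal role. Of the levels and pairs given beside these, those of miR-369, miR-543-5p, miR-1185, miR-411a-3p, miR-154a-3p, miR-487a-3p, miR-655 and miR-758 and the hairpins named for their arm balance were chosen after their values were seen. The members and lists were chosen with earlier results of these data known.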

Additional observations from a re-analysis of the deposited data

Results flagged for a closer look

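Among 124 groups of 5 libraries (1 named member at 1 age, or the run's share), 9 held a library far from the other 4, where chance flags about 1 in 20. Of these, 3 were in replicate 4 of day 180, where miR-409-3p measured 3933 RPM against 1295 to 1516 in the other 4 libraries, miR-543-3p 1802 RPM against 561 to 757, and miR-323b 102 RPM against 16.1 to 25.5. miR-3958-3p measured 3769.6 RPM in replicate 2 of day 120 against 1312 to 1537. miR-379-5p was low in replicate 5 of day 1, at 1364 RPM against 2728 to 3383. miR-3955-3p was low in replicate 2 of day 1, at 1.74 RPM against 4.71 to 5.97, and miR-134 in replicate 3 of day 180, at 0.177 RPM against 47.5 to 109. Among the rare miR-376 members, miR-376c-3p reached 14.4 RPM in replicate 3 of day 1 against 0.975 to 2.49, and miR-376e-3p stood at 0 in replicate 1 of day 180 against 1.42 to 2.24 RPM.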

How the results depend on the processing

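The counts of called members were small and changed with the tool. Over the 4 ages (main count 1) they were 0 without a filter, 3 with median-of-ratios scaling, 4 with quantile scaling, 3 and 5 with edgeR (TMM, library size) and 11 with DESeq2, and 0 to 3 with 1 library left out. In that order, the shares called of all miRNAs tested were 0.878%, 7.25%, 6.76%, 9.42%, 12.8%, 21.7%, and 1.21% to 3.86%. From day 1 to day 60 (main count 0) the counts were 1 with median-of-ratios scaling, 2 with quantile scaling, 1 without a trend, 4 and 4 with edgeR and 8 with DESeq2, and 0 to 1 with 1 library left out. The shares of all miRNAs were 9.66%, 8.21%, 4.35%, 13.8%, 15.0%, 20.8%, and 0.483% to 10.4%. From day 1 to day 180 (main count 4) the counts were 2 with a pseudocount of 0.1, 1 without a filter, 1 with a filter at 10 RPM and 0 with the 2 ages alone, 3 with a pseudocount of 5, 4 with median-of-ratios scaling, 5 with quantile scaling, 4 without a trend, 3 and 6 with edgeR, 5 with DESeq2, and 0 to 4 with 1 library left out. The shares of all miRNAs were 1.69%, 1.17%, 1.66%, 1.21%, 2.90%, 5.56%, 6.04%, 2.90%, 5.31%, 11.6%, 14.7%, and 1.21% to 7.49%. From day 60 to 120 and from day 120 to 180 the counts were 0 throughout, for members and for all miRNAs, also with 1 library left out (0 to 0). The arm balance count of 1 became 0 with a pseudocount of 5 and was 1 in every fit with 1 library left out. Over all 120 hairpins 4 were called with a pseudocount of 5, and 4 to 20 with 1 library left out. For day 60 against day 1, the arm balance count of 3, with its alternatives chosen after seeing the data, was 3 with a pseudocount of 0.1, 1 with a pseudocount of 5, 2 with a filter at 10 RPM and 0 to 3 with 1 library left out. In that order, 20%, 16.7%, 27.1%, and 2.5% to 24.2% of all hairpins tested were called. With the replicate block the counts stayed at 1, 0, 0, 0 and 4, and at 1 and 3 for arm balance. The replicate numbers did not pair the libraries: 6 of 20 correlations of same-numbered deviations exceeded 0.1 (range -0.275 to 0.336). The 4 changes called from day 1 to day 180 kept their sign in every alternative that gave them a value. Over all named members and steps, most of them not called, the sign turned in 118 of 2400 comparisons with a library left out. It turned in 82 of 1412 others. miRNAs under a few RPM rest on few reads, and their changes were limited by depth.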
